A study of Oryza sativa Japonica Group with 3 samples.

Results

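Transcripts of the chlorophyll-binding antenna proteins of photosystem II were compared between rice seedlings from ion-implanted seed and from seed that was not implanted. The family comprised 8 of the 55759 annotated loci in the files: 3 copies of Lhcb1 (LOC_Os01g41710 and LOC_Os01g52240 on chromosome 1, LOC_Os09g17740 on chromosome 9), Lhcb2 (LOC_Os03g39610, chromosome 3), Lhcb3 (LOC_Os07g37550, chromosome 7), Lhcb4 (LOC_Os07g37240, chromosome 7), Lhcb5 (LOC_Os11g13890, chromosome 11) and Lhcb6 (LOC_Os04g38410, chromosome 4). The loci were selected on their FPKM in these same 3 libraries, control, low fluence and high fluence, as members of a named family, so their values are a description and no difference between libraries was tested. The deposited values carry identifiers only, and the Lhcb names are those of the list.

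All groups were whole seedlings of rice (Oryza sativa Japonica Group), cultivar Xindao-18, kept at 28 °C under a cycle of 12 h light and 12 h dark and harvested after 96 h. Control seedlings came from seed given no ions. Low-fluence seedlings came from seed implanted with a low-energy beam of nitrogen ions (N+) at 1 and 2 times 1e+17 ions per cm2, labelled as causing no significant damage. High-fluence seedlings came from seed implanted at 6 and 8 times 1e+17 ions per cm2, fluences labelled as causing significant damage. RNA was taken from 50 buds of like height per fluence, and each irradiated library joined 10 µg from each of its 2 fluences. Each group thus had 1 library and no replicate, so that no spread between seedling pools can be set beside a value. The exponent was read from a label printed without superscript.

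Photosystem II collects light through proteins that bind chlorophyll a and b and are encoded in the nucleus, made in the cytosol and imported into the chloroplast. Lhcb1, Lhcb2 and Lhcb3 form the trimers of the major antenna, LHCII, which are among the most abundant proteins of green tissue. Lhcb4, Lhcb5 and Lhcb6, also called CP29, CP26 and CP24, are single-chain minor antennae that sit between those trimers and the reaction centre core. In green plants the transcripts of these genes are known to accumulate in light as plastids develop into chloroplasts.

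All 8 Lhcb loci were lower in high-fluence seedlings than in low-fluence and control seedlings, and all 8 were somewhat higher in low-fluence than in control seedlings. Levels are given as deposited, in FPKM (fragments per kilobase of transcript, relative to the mapped fragments of the library), summed over the transcripts of a locus. Over the 8 loci together the level was 1351 FPKM in control, 1856 in low-fluence and 152 in high-fluence seedlings. The high-fluence sum was 11.2% of the control sum, and the low-fluence sum was 137% of it. The family made up 0.222% of the FPKM of all annotated loci in control, 0.316% in low-fluence and 0.0287% in high-fluence seedlings. In RNA of whole seedlings, fewer green cells and less of these transcripts per green cell cannot be told apart.

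**Figure D1:**
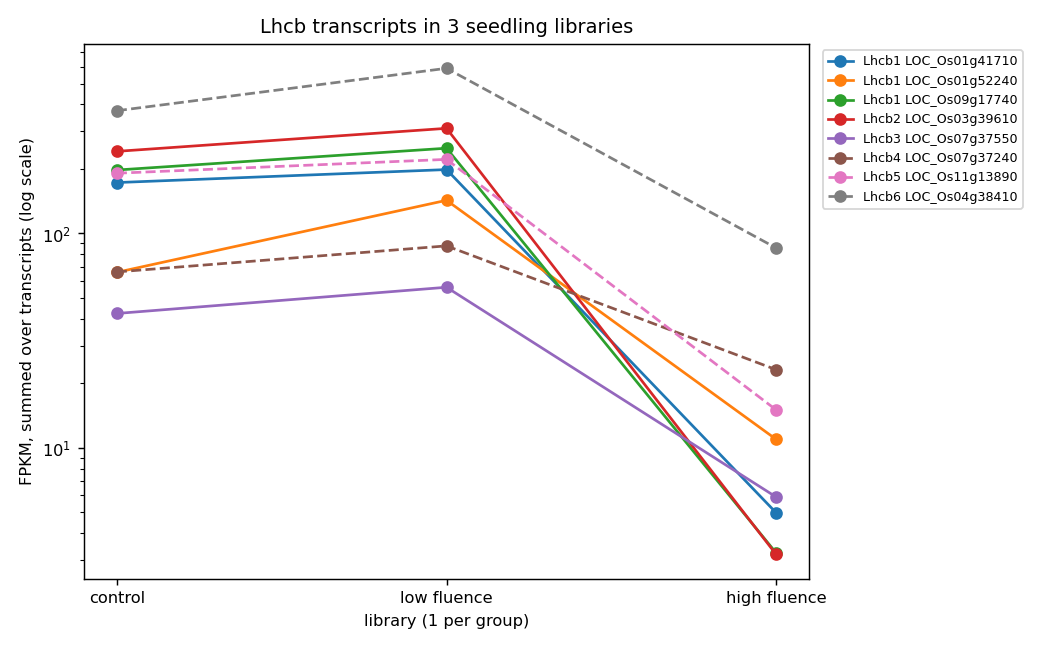
FPKM of each Lhcb locus (vertical axis, log scale) in the control, low-fluence and high-fluence libraries (horizontal axis, 1 library per group); solid lines are Lhcb1 to Lhcb3 and dashed lines Lhcb4 to Lhcb6. Every line peaks in the low-fluence library and is lowest in the high-fluence library, where Lhcb2 and the Lhcb1 copy LOC_Os09g17740 lie at 3.18 and 3.23 FPKM and Lhcb6 lies highest, at 85.5 FPKM.

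The widest gaps were found in the major antenna, but not in all of its loci. Lhcb3 and the Lhcb1 copy LOC_Os01g52240 had narrower gaps than Lhcb5 of the minor antennae. Lhcb2, whose protein is phosphorylated when LHCII moves between the photosystems in Arabidopsis, had 242 FPKM in control, 309 in low-fluence and 3.18 in high-fluence seedlings. Only the high-fluence library was low, at 1.32% of the control value. On the scale of FPKM + 1, which is used for every fold and log2 ratio here and understates changes of low values, Lhcb2 was 58.0-fold lower in high-fluence than in control seedlings and 74.3-fold lower than in low-fluence seedlings. Among the 9265 annotated loci that averaged 10 FPKM or more across the libraries, called expressed loci from here on, only 1 had a lower ratio of high-fluence to control seedlings.

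The 3 copies of Lhcb1, the main subunit of the trimers, did not move in step. LOC_Os09g17740 had 198 FPKM in control, 250 in low-fluence and 3.23 in high-fluence seedlings, 47.0-fold lower in high-fluence than in control seedlings. LOC_Os01g41710 had 173 FPKM in control, 199 in low-fluence and 4.97 in high-fluence seedlings, 29.1-fold lower in high-fluence than in control seedlings. Both copies were closer to each other in control and low-fluence seedlings than in high-fluence seedlings, where LOC_Os09g17740 was close to Lhcb2. LOC_Os01g52240 had 65.9 FPKM in control, 143 in low-fluence and 11.0 in high-fluence seedlings. It was the lowest of the 3 copies in control and low-fluence seedlings and the highest of them in high-fluence seedlings, where it was 5.60-fold below its control level. Its share of the FPKM of the 3 copies was 15.1% in control, 24.2% in low-fluence and 57.2% in high-fluence seedlings. It was also the only Lhcb locus to reach a 2-fold difference between low-fluence and control seedlings, at 2.15-fold higher. The copies are similar in coding sequence and may share reads, and their assignment is not described in the sources used here, so the division among copies is less certain than their sum. The 3 copies together had 436 FPKM in control, 591 in low-fluence and 19.2 in high-fluence seedlings, 21.7-fold lower in high-fluence than in control seedlings.

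Lhcb3, a subunit of the trimers bound farther from the core in Arabidopsis, had 42.3 FPKM in control, 56.1 in low-fluence and 5.89 in high-fluence seedlings. It was the lowest of the family in control and low-fluence seedlings, yet its gap was smaller than that of Lhcb2, at 6.29-fold lower in high-fluence than in control seedlings. The ratio of Lhcb2 to Lhcb3 was 5.70 in control and 5.51 in low-fluence seedlings but 0.540 in high-fluence seedlings, so that the order of these loci was turned round in the high-fluence library alone.

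Among the minor antennae, Lhcb5 (CP26) had 191 FPKM in control, 222 in low-fluence and 15.0 in high-fluence seedlings. It showed the widest gap of the 3 minor loci, 12.0-fold lower in high-fluence than in control seedlings. Lhcb6 (CP24), which in Arabidopsis helps to bind a trimer to the core, had the highest level of the family in every library, at 374 FPKM in control, 590 in low-fluence and 85.5 in high-fluence seedlings. It was 4.33-fold lower in high-fluence than in control seedlings and 1.58-fold higher in low-fluence than in control seedlings. Lhcb4 (CP29), which lies next to the core, had 66.2 FPKM in control, 87.5 in low-fluence and 23.1 in high-fluence seedlings. Its gap was the narrowest of the family, 2.78-fold lower in high-fluence than in control seedlings.

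Because the gaps were unequal, the make-up of the antenna transcripts differed. Lhcb1 to Lhcb3 together had 720 FPKM in control, 957 in low-fluence and 28.2 in high-fluence seedlings. Lhcb4 to Lhcb6 together had 631 FPKM in control, 899 in low-fluence and 124 in high-fluence seedlings. The ratio of the major to the minor sum was 1.14 in control, 1.06 in low-fluence and 0.228 in high-fluence seedlings. With adjoining assembled transcripts added, the high-fluence ratio was 0.367. Control and low-fluence seedlings were alike in the ratio of the major to the minor sum, though shares of single loci differed. In high-fluence seedlings Lhcb6 held most of the family's FPKM. Its share of the family was 27.7% in control, 31.8% in low-fluence and 56.3% in high-fluence seedlings, and that of Lhcb2 was 17.9%, 16.7% and 2.09%. The highest Lhcb locus exceeded the lowest 8.83-fold in control, 10.5-fold in low-fluence and 26.9-fold in high-fluence seedlings, so the family was most uneven in the last.

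**Figure D2:**
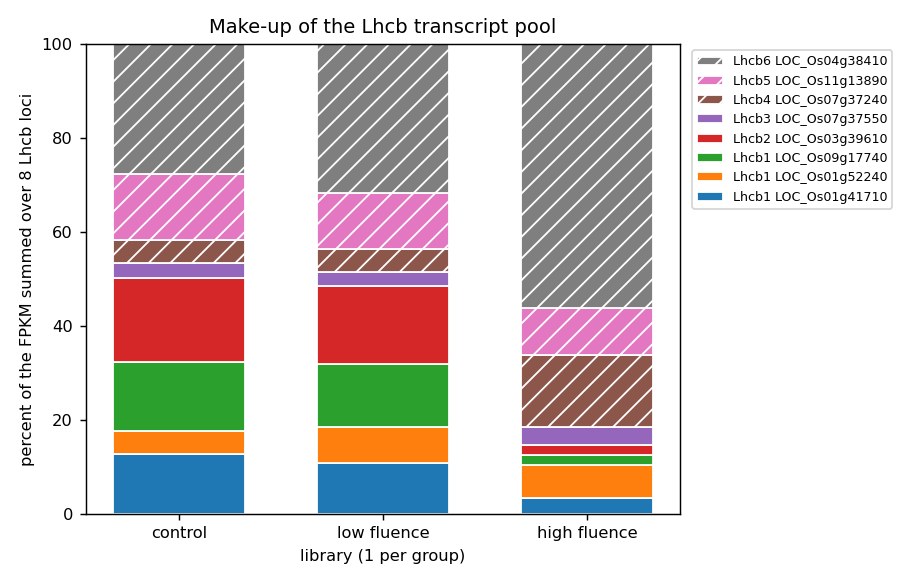
Share of each locus in the FPKM summed over the 8 Lhcb loci (vertical axis, percent) in the control, low-fluence and high-fluence libraries (horizontal axis, 1 library per group); hatched segments are Lhcb4 to Lhcb6. The hatched part takes up 46.7% of the bar in control, 48.4% in low-fluence and 81.4% in high-fluence seedlings.

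The first comparison asked how seedlings given damaging fluences differed from control seedlings. All 8 Lhcb loci were among the expressed loci, and all 8 were at least 2-fold lower in high-fluence seedlings, where 5.20% of the expressed loci were at least 2-fold lower. None was at least 2-fold higher, where 2.37% of the expressed loci were. A gap of at least 3-fold was found for 7 of the 8, all but Lhcb4, and for 1.46% of the expressed loci. With each library rescaled to an FPKM total of 1000000, 7 of the 8 were at least 2-fold lower, as were 0.917% of the expressed loci, and 20.5% of the expressed loci were at least 2-fold higher. The libraries differed in how their FPKM was spread. The 2 transcripts of highest mean level took up 73.3% of all FPKM in control, 76.3% in low-fluence and 53.0% in high-fluence seedlings. The part of this difference in the Lhcb values as deposited was not tested. The list was known from this contrast, so nothing is read from these differences in share. In high-fluence against control seedlings the log2 ratio had a median of -3.12 over the 8 loci and -0.15 over the expressed loci. The Lhcb ratios ran from -5.86 for Lhcb2 to -1.48 for Lhcb4. Of the 14 expressed loci that were at least 10-fold lower in high-fluence seedlings, or 0.151%, 4 were Lhcb2, Lhcb5 and the Lhcb1 copies LOC_Os09g17740 and LOC_Os01g41710.

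The second comparison set seedlings given non-damaging fluences against control seedlings. All 8 Lhcb loci were above the control, as were 40.6% of the expressed loci. A difference of 2-fold was reached by 1 of the 8, LOC_Os01g52240, and by 0.928% of the expressed loci. That locus fell short of 2-fold at an FPKM total of 1000000, with a log2 ratio of 0.94, where 0.507% of the expressed loci were at least 2-fold higher, and with the adjoining assembled transcripts added, with 0.79. None of the 8 was at least 2-fold lower, where 1.08% of the expressed loci were. The median log2 ratio of low-fluence to control seedlings was 0.38 over the 8 loci and -0.07 over the expressed loci. The other 7 loci were between 1.15-fold, for LOC_Os01g41710, and 1.58-fold, for Lhcb6, above the control, and without replicates differences of this size cannot be set against the spread between pools.

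The third comparison set damaging against non-damaging fluences. All 8 Lhcb loci were at least 2-fold lower in high-fluence than in low-fluence seedlings, where 2.97% of the expressed loci were, and none was at least 2-fold higher, where 1.18% were. Lhcb4 fell short of 2-fold at an FPKM total of 1000000, with a log2 ratio of -0.87, and with the adjoining assembled transcript added, with -0.88, which left 7 of the 8. At that total 0.443% of the expressed loci were at least 2-fold lower and 30.0% at least 2-fold higher. The median log2 ratio was -3.69 over the 8 loci and -0.09 over the expressed loci. The gaps ran from 3.67-fold for Lhcb4 to 74.3-fold for Lhcb2. LOC_Os01g52240 was 12.0-fold lower in high-fluence than in low-fluence seedlings, a wider gap than its 5.60-fold against the control.

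**Figure D3:**
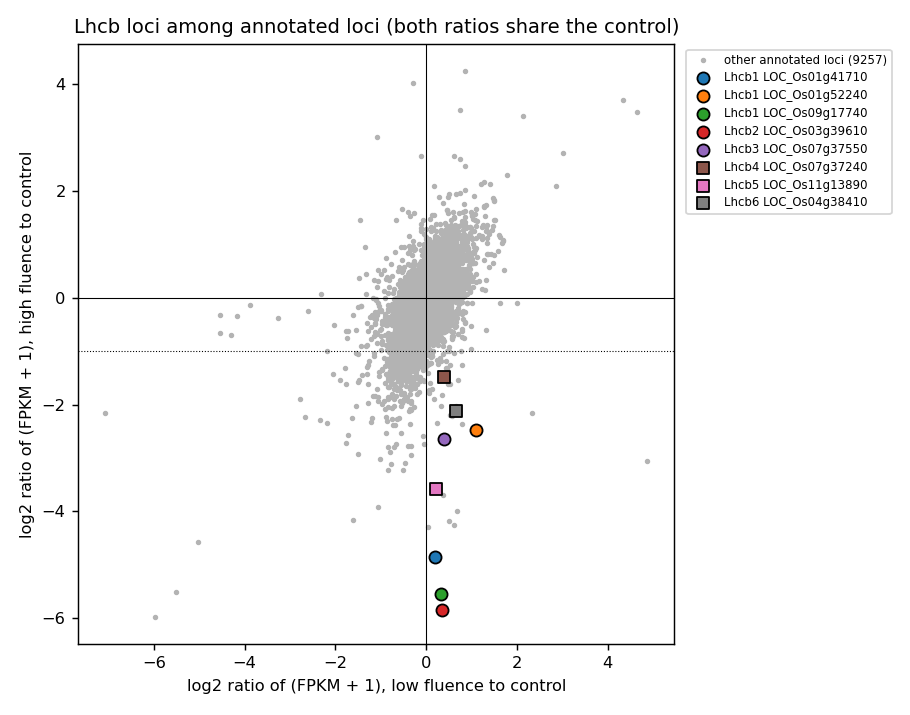
Log2 ratio of (FPKM + 1) of low-fluence to control seedlings (horizontal axis) and of high-fluence to control seedlings (vertical axis) for the 8 Lhcb loci (coloured; circles Lhcb1 to Lhcb3, squares Lhcb4 to Lhcb6) and the 9257 other expressed loci (grey); the dotted line marks 2-fold lower in high-fluence seedlings. The Lhcb loci all lie right of 0 and below the dotted line, from -1.48 to -5.86 on the vertical axis; both axes share the control library, so their relation across loci is not read.

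The 2 expressed loci outside the family whose pattern was most like it, by Euclidean distance from the family's median pair of log2 ratios to control over the 3 libraries, were LOC_Os08g07200 and LOC_Os04g33830. Both ratios share the control library. LOC_Os08g07200 on chromosome 8 had 37.3 FPKM in control, 36.0 in low-fluence and 4.76 in high-fluence seedlings, at a distance of 0.57. LOC_Os04g33830 on chromosome 4 had 60.4 FPKM in control, 78.2 in low-fluence and 3.72 in high-fluence seedlings, at a distance of 0.58. Of this pair, LOC_Os04g33830 alone was above the control in low-fluence seedlings. Within a distance of 1 lay 3 of the 8 Lhcb loci and 13 of the 9257 other expressed loci, and within 0.5 lay 2 Lhcb loci and 0 others. The centre was taken from the Lhcb loci themselves, so their nearness to it is built in and nothing is read from these counts. Neither locus is named in the files.

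Nearly all FPKM of each Lhcb locus belonged to 1 annotated transcript. Lhcb5 was listed with 5 transcripts, Lhcb2 with 2 and the remaining loci with 1 each. The first transcript of Lhcb5 had 191 FPKM in control, 220 in low-fluence and 14.4 in high-fluence seedlings, and its other transcripts had at most 1.49 FPKM in any library. The second transcript of Lhcb2 was listed at 0 throughout.

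Assembled transcripts, which carry no gene assignment, were listed directly before or after 5 of the Lhcb loci and may overlap them. The row after Lhcb4 held CUFF.12196.1, with 49.0 FPKM in control, 45.8 in low-fluence and 49.0 in high-fluence seedlings. It was nearly level across the libraries, and with it added the log2 ratio of Lhcb4 in high-fluence to control seedlings was -0.67, short of 2-fold. On one side of the Lhcb1 copy LOC_Os01g52240 stood CUFF.1316.1, with 10.4 FPKM in control, 18.3 in low-fluence and 0.224 in high-fluence seedlings. On the other side stood CUFF.1317.1, with 46.5 FPKM in control, 52.1 in low-fluence and 33.9 in high-fluence seedlings. CUFF.1316.1 and CUFF.1317.1 both followed the order of the locus between them, and CUFF.1317.1 differed less between libraries. With both added, LOC_Os01g52240 had a log2 ratio to control of 0.79 in low-fluence seedlings, short of 2-fold, and of -1.43 in high-fluence seedlings. The assembled transcripts beside LOC_Os09g17740, Lhcb3 and Lhcb5 had at most 1.48 FPKM in any library. Whether reads were divided with assembled transcripts was not tested.

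Expressed loci near the family were also compared with it after the values had been seen. The nearest one on each side of each Lhcb locus, by locus number, gave 16 neighbours. They differed from their Lhcb locus by up to 620 in locus number, so not all are adjacent genes. None of the 16 was at least 2-fold lower in high-fluence than in control seedlings, and 1 was at least 2-fold higher, where 5.20% of the expressed loci were lower and 2.37% higher. With so few neighbours these counts do not set them apart from the expressed loci. Their log2 ratios ran from -0.52 to 1.04, with a median of -0.16.

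The total number of fragments is not part of the FPKM files, and relative depth was read from low values, which step by the worth of a single fragment. By this estimate the high-fluence library had 1.36 times and the low-fluence library 0.497 times the depth of the control library. The part of depth in the Lhcb values was not tested. The median FPKM of the expressed loci was 25.5 in control, 24.5 in low-fluence and 22.9 in high-fluence seedlings, while that of the 8 Lhcb loci was 182, 210 and 8.42. Ranked by level among all annotated loci, Lhcb2 stood at place 310 in control, 198 in low-fluence and 14749 in high-fluence seedlings. Lhcb6 stood at place 155 in control, 65 in low-fluence and 1005 in high-fluence seedlings.

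**Figure D4:**
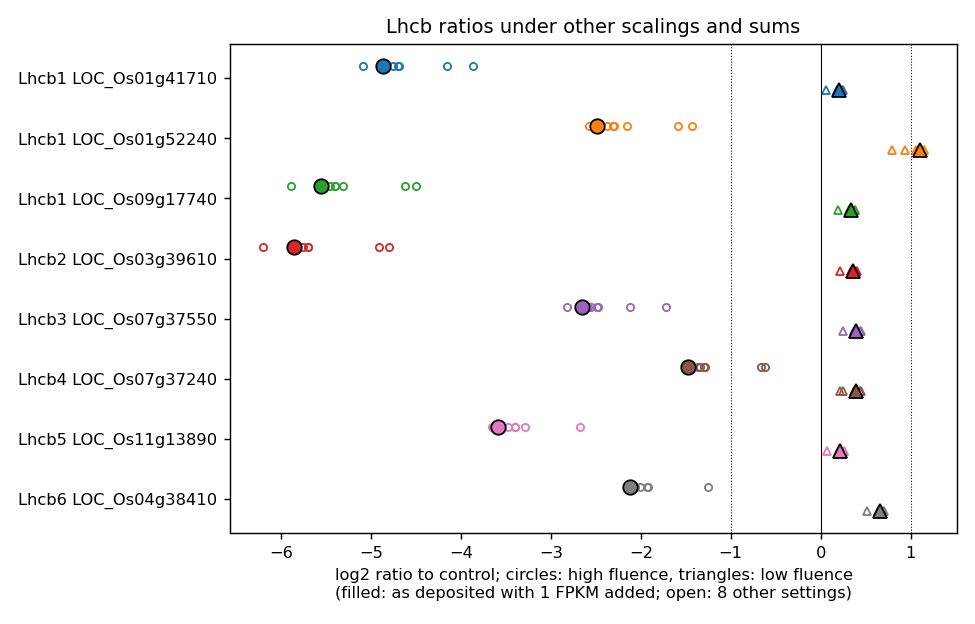
Log2 ratio to control of each Lhcb locus (horizontal axis; circles high-fluence, triangles low-fluence seedlings) as deposited with 1 FPKM added (filled) and under 8 other scalings, pseudocounts and ways of summing transcripts (open); dotted lines mark 2-fold. Every circle lies below 0 and every triangle above it, and Lhcb4 is the only locus with circles right of the dotted line at -1, at -0.67 and -0.62.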

How the data were processed

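Messenger RNA of 3 libraries, 1 per group, was analysed. The authors deposited FPKM for each transcript, as stated per the file headers. The submitters' processing notes name TopHat2 2.0.5. The FPKM program, genome build, annotation release, use of strand, treatment of shared reads and hour of sampling within the light cycle are not described in the sources used here. The total number of fragments is unknown.

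FPKM were summed per locus (Python 3.11.15, pandas 2.3.3, numpy 2.4.6), and log2 ratios of (FPKM + 1) were computed. A 2-fold ratio counted as differing, and loci averaging 10 FPKM or more across the libraries formed the background. With 1 library per group no test was run. The ratio and depth calculations were run on simulated data. The ratios were simulated without noise, so that run checks their arithmetic alone, and depth was tried at a single known ratio. The members and lists were chosen with earlier results of these data known. Named loci were the 8 members and the 2 nearest in pattern. Of the 55759 identifiers, 0 matched the RefSeq gene table (assembly ASM3414082v1) and 1, no Lhcb locus, matched without its prefix, so other pathway genes were not listed and no sequence is shown. Relative depth used single-transcript loci below 0.2 FPKM in both libraries. Their most frequent ratio was taken as that of 1 fragment in each library. At that step, ratios of whole numbers up to 6 were met within 1% by 77.9% of 983 loci (high fluence, control) and 82.6% of 559 loci (low fluence, control).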

Additional observations from a re-analysis of the deposited data

Results flagged for a closer look

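All 8 Lhcb loci lay on opposite sides of the control in the irradiated libraries, lower at high fluence and higher at low fluence. Both comparisons share the control library, and with 1 library per group the difference between the fluences was not tested. The log2 ratio of high to low fluence was -6.21 for Lhcb2 (LOC_Os03g39610), -3.05 for Lhcb3 (LOC_Os07g37550), -1.87 for Lhcb4 (LOC_Os07g37240), -3.80 for Lhcb5 (LOC_Os11g13890) and -2.77 for Lhcb6 (LOC_Os04g38410). Among the Lhcb1 copies it was -5.06 for LOC_Os01g41710, -3.59 for LOC_Os01g52240 and -5.89 for LOC_Os09g17740. LOC_Os01g52240 was the only one of the 8 at least 2-fold from the control in both directions.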

How the results depend on the processing

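Under 4 scalings, 2 pseudocounts and 2 ways of summing, every Lhcb locus stayed below the control in high-fluence seedlings and above it in low-fluence seedlings. A pseudocount cannot change the side of the control, and taking the highest transcript alone left all loci but Lhcb5 unchanged. At an FPKM total of 1000000 the low-fluence log2 ratio was only 0.06 for LOC_Os01g41710 and 0.07 for Lhcb5. With any 1 locus left out, the family sum stayed at least 2-fold lower in high-fluence seedlings. That had to follow, because each locus was at least 2-fold lower. At an FPKM total of 1000000, where the expressed loci had a median log2 ratio of 0.64 for high-fluence against control seedlings, in place of -0.15, and with adjoining assembled transcripts added, Lhcb4 fell short of 2-fold in high-fluence seedlings against both control and low-fluence seedlings, and the number of Lhcb loci at least 2-fold higher in low-fluence seedlings was 0 in place of 1. That number was 2 at a fold of 1.5 and 0 at a fold of 3. Added assembled transcripts gave 0.367 for the major to minor ratio in high-fluence seedlings. The median of the expressed loci for the same comparison was -0.04 by median-of-ratios, 0.03 by upper-quartile and 0.04 by annotated-total scaling.

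Shares of loci past the fold moved as follows, and beyond the settings' own construction the cause was not tested. They are shares of the 9265 expressed loci, except where a setting changed the set of loci. That set was all 55759 annotated loci with no minimum, 18934 at a minimum mean of 1 and 12897 with assembled transcripts. For high-fluence against control seedlings, the lower share was 3.42% at the annotated total of the control, 0.917% at a total of 1000000, 3.43% at pseudocount 5, 2.44% with no minimum, 17.3% at a fold of 1.5 and 1.46% at a fold of 3. The higher share was 4.02% by upper quartile, 4.19% at the annotated total, 20.5% at a total of 1000000, 1.49% at pseudocount 5, 4.23% at a minimum mean of 1, 7.43% at a fold of 1.5 and 0.475% at a fold of 3. For low-fluence against control seedlings, the lower share was 0.637% at pseudocount 5, 3.52% at a minimum mean of 1, 4.33% at a fold of 1.5 and 0.324% at a fold of 3. The higher share was 0.507% at a total of 1000000, 0.561% at pseudocount 5, 1.67% with assembled transcripts, 1.42% with no minimum, 3.06% at a minimum mean of 1, 4.60% at a fold of 1.5 and 0.183% at a fold of 3. For high-fluence against low-fluence seedlings, the lower share was 1.66% by upper quartile, 1.95% at the annotated total, 0.443% at a total of 1000000, 1.77% at pseudocount 5, 1.90% with no minimum, 4.56% at a minimum mean of 1, 10.8% at a fold of 1.5 and 0.788% at a fold of 3. The higher share was 1.96% by upper quartile, 30.0% at a total of 1000000, 0.723% at pseudocount 5, 3.61% at a minimum mean of 1, 4.36% at a fold of 1.5 and 0.313% at a fold of 3. No paired analysis was possible because each group has 1 library.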
